A study of Homo sapiens with 15 samples.

Results

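The 33 genes described here encode chemokines and secreted cytokines, and they were followed through RNA-seq libraries of A673, an established Ewing sarcoma cell line. The genes were chosen by symbol and function and not by a measured value, but earlier results of these data were known at the time. Of the 33, 32 matched a row of the deposited table of 57820 genes. CCL5 matched none and has no value. 31 genes averaged at least 1 count per library and were tested, and CXCL5 was left out of the tests with 0 to 4 counts per library. The cells belonged to 5 conditions with 3 libraries each. iLuc cells carried a short hairpin RNA (shRNA) against luciferase with an empty vector and kept the endogenous fusion oncoprotein EWS/FLI. iEF cells carried an shRNA directed at the 3′ untranslated region of EWS/FLI, also with an empty vector. WT-EF, Δ22 and DAF cells carried the same shRNA together with a FLAG-tagged cDNA that lacks the target of the hairpin. This cDNA encoded wildtype EWS/FLI in WT-EF, a form without the EWS domain in Δ22, and a form with tyrosine-to-alanine changes in the EWS domain in DAF. In every condition the shRNA virus was given on day 1 and the vector or cDNA virus on day 5, and cells stayed under 2 µg/mL puromycin and 400 µg/mL hygromycin until day 16. All libraries come from 1 tumor cell line that received bulk retroviral transduction. The labels give replicate numbers 1 to 3 but do not say whether these are separate cultures, so p-values measure the spread between these libraries. The comparison of iLuc with iEF asks what endogenous EWS/FLI does to these genes, and the comparisons of WT-EF, Δ22 and DAF with iEF ask what each construct restores.

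Chemokines are small secreted proteins that guide the migration of leukocytes through G protein-coupled receptors. CXC chemokines with a glutamate-leucine-arginine (ELR) motif act mainly on neutrophils through CXCR1 and CXCR2, CXCL9 to CXCL11 act on T cells through CXCR3, and several CC chemokines attract monocytes through CCR2. Secreted cytokines of the IL-1 and IL-6 families and the colony-stimulating factors act on receptors of immune, stromal and tumor cells. Many of these genes are known targets of the transcription factors NF-kB, AP-1 and C/EBP, and the ELR CXC genes lie side by side in the genome. EWS/FLI is known to bind GGAA repeats and to repress as well as activate genes.

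Upstream sequences of 5 ELR CXC genes are shown because these genes were all lower in iLuc than in iEF and share a short motif. The 6 listed ELR CXC genes lie within 359 kb of chromosome 4 (GRCh37, chr4:74606236-74964913). RefSeq promoter windows (GRCh38.p14, 250 bases before to 50 bases after the start site) were found for 22 of the 33 genes, and the bases directly before the window's start site are given 5′ to 3′ on the strand of the gene. They lie at chr4:73740449-73740568 (CXCL8), chr4:73836558-73836677 (CXCL6) and chr4:73869273-73869392 (CXCL1) on the + strand, and at chr4:74038690-74038809 (CXCL3) and chr4:74099196-74099315 (CXCL2) on the - strand. Capitals mark matches to GGNNTTTCC, the core of an NF-kB-type motif.
CXCL8: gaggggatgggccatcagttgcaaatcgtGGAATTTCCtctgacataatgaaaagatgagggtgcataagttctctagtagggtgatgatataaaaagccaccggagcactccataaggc
CXCL6: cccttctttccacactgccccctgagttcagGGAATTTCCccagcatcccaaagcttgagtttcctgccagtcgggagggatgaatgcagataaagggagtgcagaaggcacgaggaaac
CXCL1: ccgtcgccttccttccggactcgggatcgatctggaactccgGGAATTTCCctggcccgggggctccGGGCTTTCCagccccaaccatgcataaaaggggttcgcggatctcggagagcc
CXCL3: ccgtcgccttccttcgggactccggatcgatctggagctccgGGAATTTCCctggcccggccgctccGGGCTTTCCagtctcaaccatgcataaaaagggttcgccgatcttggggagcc
CXCL2: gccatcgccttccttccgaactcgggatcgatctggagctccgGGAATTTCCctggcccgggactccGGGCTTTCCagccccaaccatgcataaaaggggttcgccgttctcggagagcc
The motif GGNNTTTCC, searched on both strands, stood in the windows of 11 of these 22 genes and in 6.26% of all 35116 RefSeq promoter windows. The 11 were CXCL1, CXCL2, CXCL3, CXCL5, CXCL6, CXCL8, CXCL10, CXCL11, CCL20, IL6 and IL32. CXCL1, CXCL2, CXCL3 and IL32 held it at more than 1 position. The AP-1 motif TGANTCA stood in 6 genes (CXCL8, CXCL11, CXCL14, CCL7, IL11 and IL1A) and in 7.71% of all windows. GGAAGGAA, a short run of the repeat unit that EWS/FLI binds, stood in CXCL1, CXCL2, IL11 and IL33 and in 3.67% of all windows. These matches are letters in a window, and binding was not measured here. Compared position by position without gaps, CXCL1 and CXCL3 were identical at 109 of 120 upstream positions (90.8%), and CXCL8 and CXCL6 at 38 of 120 (31.7%). GGAATTTCC starts at position -91 in CXCL8 and -89 in CXCL6, so this shared motif does not line up in that count. CXCL1, CXCL2 and CXCL3 are related genes, and how the counting divided any reads shared among them was not tested.

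Libraries held between 28659475 and 41859880 counts, with a median of 32943231. Levels are given below as CPM, the usual unit of counts scaled to library size, after TMM scaling, and a gene with at most 3 counts in a library has only a rough level there. Reads on FLI1 come from the fusion transcript and from the introduced cDNA. The cDNA lacks the untranslated target of the hairpin, so the 2 transcripts need not give equal reads. These reads averaged 49.4 ± 2.62 CPM in iLuc and 14.6 ± 1.44 CPM in iEF (SD, n = 3). They averaged 17.6 ± 1.39 CPM in WT-EF, 31.2 ± 6.08 in Δ22 and 24.3 ± 2.64 in DAF. The level was lower in WT-EF than in DAF (log2 fold change -0.47 ± 0.10, edgeR adjusted p = 0.00264), and the part of this difference in the results was not tested. NR0B1, a gene activated by EWS/FLI, lay between 49.8 and 61.2 CPM in iLuc, 3.94 and 8.67 in iEF, and 42.2 and 59.4 in WT-EF. The summed level of 9 leukocyte markers was between 1.5 and 2.31 CPM in iLuc, 2.46 and 4.09 in iEF, 2.92 and 3.61 in WT-EF, 1.97 and 5.22 in Δ22, and 3.14 and 7.49 in DAF. Of these markers, at least 3 had at most 3 counts in every library of each condition. Markers of other cell types also differed between iLuc and iEF. The summed level of 5 fibroblast markers was 94.7 to 96.3 CPM in iLuc, 238 to 364 in iEF and 92 to 130 in WT-EF. Of these, PDGFRA averaged 0.702 CPM in iLuc and 127 in iEF, and COL1A1 4.71 and 109 CPM. DCN went the other way, with 1.21 CPM in iLuc and 0.176 in iEF (edgeR adjusted p = 0.000858). PDGFRB and THY1 did not pass the edgeR test, and THY1 averaged 58.6 CPM in iLuc and 49.6 in iEF. The endothelial marker KDR averaged 1.04 CPM in iLuc and 11.4 in iEF. In the same list CDH5 averaged 0.137 and 0.14 CPM, and VWF did not pass the test (edgeR adjusted p = 0.0918). The part of these markers in the results was not tested. In bulk RNA, fewer cells expressing a gene and less RNA per cell cannot be told apart.

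Δ22 replicate 3 and DAF replicate 3 stood apart for these genes. Of the 31 tested genes, 23 had their highest value of all 15 libraries in Δ22 replicate 3, against 9.46% of all genes tested. Another 4 were highest in DAF replicate 3 (7.39% of all genes), and the other 4 in iEF replicate 3 (6.54%). Counts of called genes, and values that change a call, are therefore given with and without these libraries for Δ22 and DAF.

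**Figure D1:**
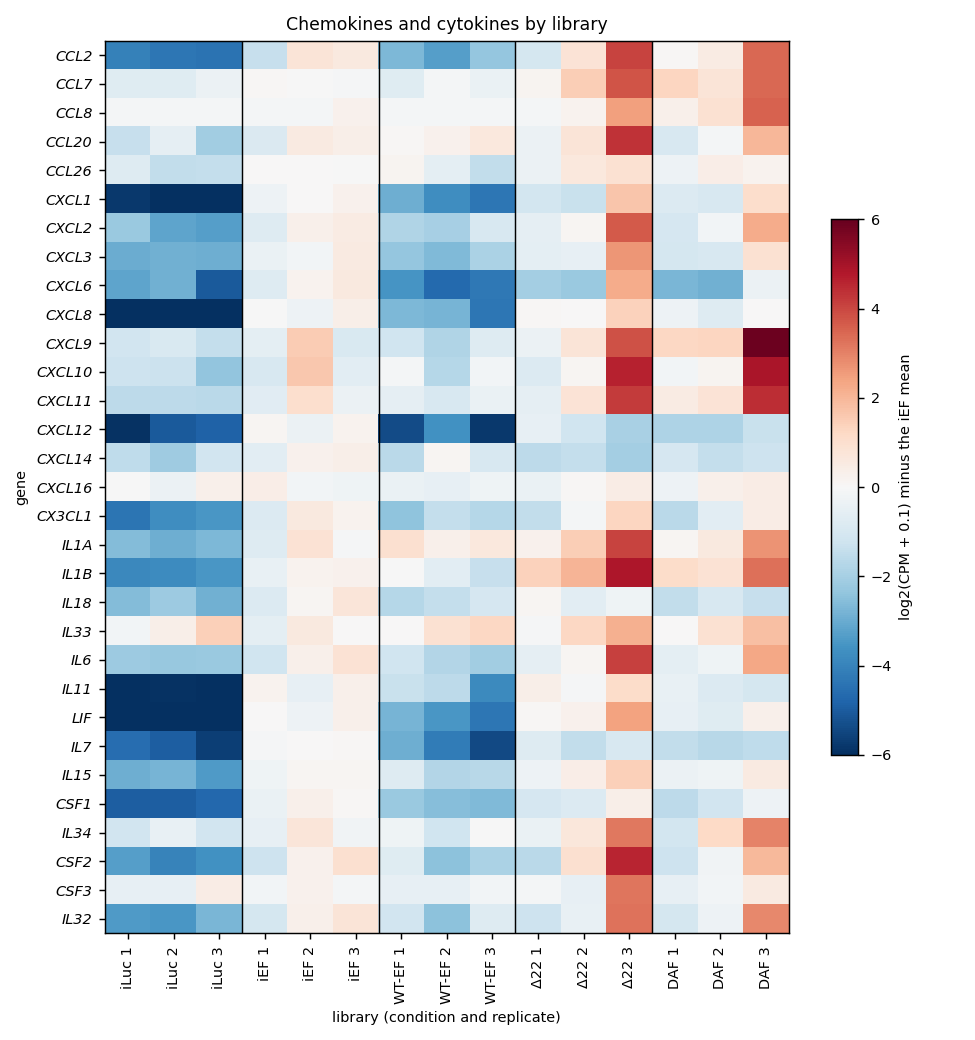
Level of each of the 31 tested genes (rows) in each of the 15 libraries (columns), as log2(CPM + 0.1) minus the mean of the same quantity over the 3 iEF libraries. Blue is lower and red higher than iEF, with the color scale ending at 6 in both directions. Most genes are blue in all 3 iLuc libraries, and red is concentrated in replicate 3 of Δ22 and of DAF.

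Per length of exon, CXCL8 had the highest level of the 31 genes in every condition. In iEF it reached 492 ± 113 RPKM (CPM divided by the exon length in kilobases; SD, n = 3), with a range of 388 to 613. CCL2 followed in iEF with 10.8 to 48.5 RPKM and CXCL1 with 21.4 to 31.3, and these ranges overlapped. LIF (12.4 to 18.6 RPKM) came next, below all CXCL1 values, and was followed by IL11 (10.3 to 17.5), IL1A (4.69 to 14.8) and CSF1 (5.98 to 9.96), where each range overlapped the one before. The order differed in iLuc, where CXCL8 (5.47 to 7.03 RPKM) was followed by IL33 (0.921 to 2.83), CCL2 (1.25 to 1.66) and IL1A (1.02 to 1.29), which overlapped in the same way. In WT-EF, IL1A was the second highest with 10.2 to 16.1 RPKM, below CXCL8 with 23.8 to 75.8.

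Endogenous EWS/FLI went with low levels of most of these genes. In iLuc compared with iEF, 21 of 31 tested genes were lower and 0 were higher at an adjusted p under 0.05 (edgeR quasi-likelihood test), while 22.1% of all 28793 genes tested were lower and 19.5% higher. At an unadjusted p under 0.05 the count of higher genes was also 0, and DESeq2 gave 0. The median log2 fold change was -3.44 over the 31 genes and 0.04 over all genes tested, and it was -3.58 over the 28 genes with more than 3 counts in a library of either condition. The lower genes included 5 of 5 tested ELR CXC chemokines, 3 of 3 IL-6 family members, both IL7 and IL15, 3 of 4 IL-1 family members, 3 of 4 in the group of CXCL12, CXCL14, CXCL16 and CX3CL1, 2 of 5 CC chemokines, 2 of 4 in the group of colony-stimulating factors and IL34, and IL32. Without Δ22 replicate 3 and DAF replicate 3, which shape the shared estimate of the spread, 25 genes were lower (22% of all genes) and 0 higher (18.7%). The 4 added were CCL20, CXCL9, CXCL10 and CXCL11.

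CXCL8, which encodes the neutrophil attractant interleukin-8, measured 16.9, 18.2 and 14.1 CPM in iLuc and 1234, 1003 and 1585 CPM in iEF. The conditions were far apart, and the fitted level was 75.7-fold lower in iLuc (log2 fold change -6.24 ± 0.49 SE, edgeR adjusted p = 1.33e-07). CXCL1, also an agonist of CXCR2, measured 0.550, 0.449 and 0.119 CPM in iLuc and 29.1, 36.8 and 42.6 CPM in iEF, again without overlap (log2 fold change -6.63 ± 0.82, edgeR adjusted p = 1.17e-05). The related CXCL2 lay between 0.119 and 0.367 CPM in iLuc and 1.16 and 3.00 in iEF (edgeR adjusted p = 0.00499). CXCL3 lay between 0.306 and 0.337 CPM in iLuc and 2.34 and 4.62 in iEF (edgeR adjusted p = 0.000212). CXCL6, which binds CXCR1 and CXCR2, measured 0.948, 1.18 and 0.179 CPM in iLuc and 5.28, 10.6 and 13.9 CPM in iEF (edgeR adjusted p = 0.0084). Every iLuc library was below every iEF library for all 5 of these genes, by a smaller fold for CXCL2, CXCL3 and CXCL6 than for CXCL8 and CXCL1 in the fitted values.

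**Figure D2:**
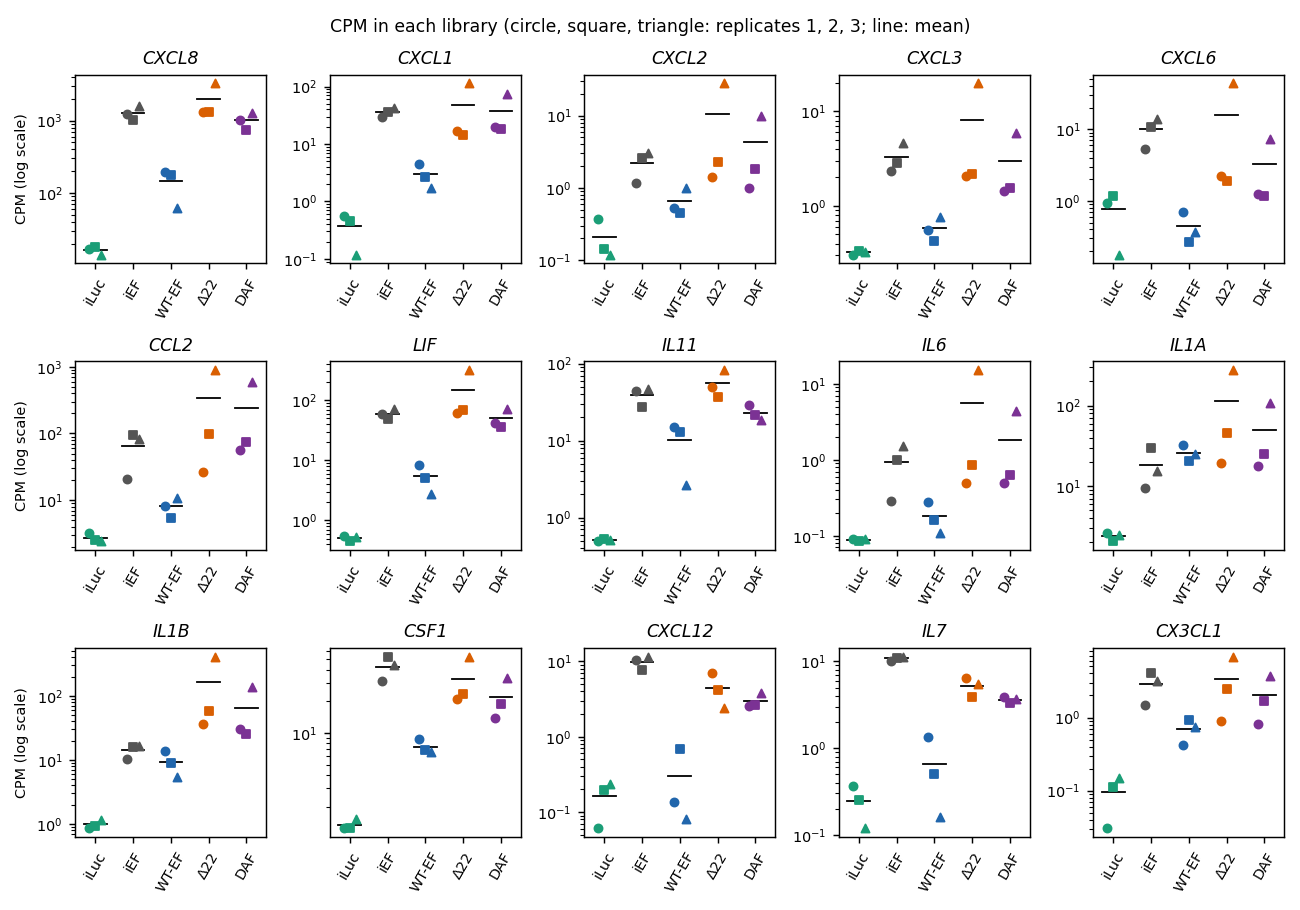
CPM of 15 of the genes in each library on log axes, with circles, squares and triangles for replicates 1, 2 and 3 and a line at the mean of each condition. iLuc libraries lie below iEF libraries in every panel, WT-EF libraries lie between them for CXCL8, CXCL1, LIF, IL11 and CSF1, and the triangles of Δ22 and DAF lie above the circles and squares for most genes.

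The IL-6 family cytokines signal through the shared receptor gp130, encoded by IL6ST. LIF, the leukemia inhibitory factor, measured 0.550, 0.449 and 0.537 CPM in iLuc and 59.0, 48.1 and 72.2 CPM in iEF. IL11 measured 0.489, 0.533 and 0.507 CPM in iLuc and 43.8, 27.6 and 46.8 CPM in iEF. The conditions did not overlap for either gene, with log2 fold changes of -6.88 ± 0.63 for LIF (edgeR adjusted p = 5.66e-07) and -6.25 ± 0.59 for IL11 (edgeR adjusted p = 8.52e-07). IL6 itself was low in both conditions, with 3 counts in each iLuc library and 0.289, 0.978 and 1.51 CPM in iEF (edgeR adjusted p = 0.0185, and 0.083 without the replicate block).

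In the IL-1 family, IL1A and IL1B encode the proinflammatory IL-1α and IL-1β. IL1A measured 2.60, 2.05 and 2.45 CPM in iLuc and 9.46, 29.9 and 15.6 CPM in iEF, a log2 fold change of -2.99 ± 0.75 (edgeR adjusted p = 0.00488). IL1B measured 0.856, 0.926 and 1.16 CPM in iLuc and 10.2, 16.0 and 16.4 CPM in iEF, a log2 fold change of -3.97 ± 0.80 (edgeR adjusted p = 0.00091). Neither gene overlapped between the conditions, while IL33, an alarmin that binds the receptor ST2, did. IL33 measured 3.00, 4.32 and 9.19 CPM in iLuc and 2.21, 5.09 and 3.37 CPM in iEF, with a log2 fold change of 0.51 ± 0.27 that missed the threshold (edgeR adjusted p = 0.153). IL18, which acts on T and NK cells, was at most 0.112 CPM in iLuc and 0.447 to 1.48 CPM in iEF (edgeR adjusted p = 7.49e-05).

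CSF1, the main growth factor of macrophages, measured 1.25, 1.26 and 1.52 CPM in iLuc and 31.3, 52.2 and 44.2 CPM in iEF (log2 fold change -4.99 ± 0.33, edgeR adjusted p = 2.85e-08). IL7, a survival factor of lymphocytes, measured 0.367, 0.252 and 0.119 CPM in iLuc and 10.2, 11 and 11.3 CPM in iEF (log2 fold change -5.50 ± 0.45, edgeR adjusted p = 2.08e-07). Both were lower in all iLuc libraries, and the iEF values of IL7 were among the most even of the set. CSF2, which encodes GM-CSF, had at most 2 counts in an iLuc library and measured 0.578, 1.79 and 3.02 CPM in iEF (edgeR adjusted p = 0.00667). IL32 measured 0.245, 0.224 and 0.448 CPM in iLuc and 1.66, 4.32 and 6.02 CPM in iEF (edgeR adjusted p = 0.0019). IL15, which supports NK cells, was at most 0.140 CPM in iLuc and 1.31 to 1.75 CPM in iEF (edgeR adjusted p = 4.48e-05). IL34, the other ligand of the CSF1 receptor, overlapped between the conditions (0.0299 to 0.112 CPM in iLuc, 0.105 to 0.371 in iEF, edgeR adjusted p = 0.231), and CSF3 had at most 3 counts in any library of either.

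CXCL12, the ligand of CXCR4, measured 0.0611, 0.196 and 0.239 CPM in iLuc and 10.6, 7.69 and 11.5 CPM in iEF (log2 fold change -5.87 ± 0.61, edgeR adjusted p = 1.97e-06). CX3CL1, a membrane-bound chemokine that is released by shedding, measured 0.0306, 0.112 and 0.149 CPM in iLuc and 1.47, 4.08 and 3.11 CPM in iEF (log2 fold change -4.95 ± 0.50, edgeR adjusted p = 1.55e-06). For both genes the conditions did not overlap. CXCL16, the other membrane-bound chemokine, lay between 1.57 and 2.54 CPM in iLuc and 1.72 and 2.71 CPM in iEF, with a log2 fold change of -0.06 ± 0.27 (edgeR adjusted p = 0.882). CXCL14 was at most 0.149 CPM in iLuc and 0.263 to 0.611 CPM in iEF (edgeR adjusted p = 0.00776). CCL2, a monocyte attractant that binds CCR2, measured 3.21, 2.58 and 2.42 CPM in iLuc and 20.8, 93.8 and 81.9 CPM in iEF, without overlap (log2 fold change -4.41 ± 0.90, edgeR adjusted p = 0.001). CCL26, an eosinophil attractant, was at most 0.153 CPM in iLuc and 0.320 to 0.342 CPM in iEF (edgeR adjusted p = 0.0414). CCL20, the ligand of CCR6, overlapped between them (edgeR adjusted p = 0.275), and CCL7 and CCL8 had at most 3 counts in every library of both conditions.

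The ligands of CXCR3 spread widely among the iEF libraries. CXCL9 measured 0.131, 0.911 and 0.0873 CPM in iEF and 0.0611, 0.0842 and 0.0299 CPM in iLuc. CXCL11 measured 0.604, 2.19 and 0.785 CPM in iEF and 0.275, 0.281 and 0.269 CPM in iLuc. iEF replicate 2 was the highest of its condition for both genes and for CXCL10 (9.71 CPM against 1.5 and 1.92). The iLuc libraries were below all iEF libraries for CXCL10 and CXCL11. CXCL9 had at most 3 counts in every iLuc library, and its highest iLuc value (0.0842 CPM) hardly differed from its lowest iEF value (0.0873 CPM). None of the 3 passed the test with all libraries (edgeR adjusted p = 0.14 for CXCL9, 0.207 for CXCL10 and 0.104 for CXCL11), and without Δ22 replicate 3 and DAF replicate 3 the values were 0.0426, 0.021 and 0.00292.

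Re-expression of wildtype EWS/FLI also lowered a part of these genes. In WT-EF compared with iEF, 13 of 31 genes were lower and 0 higher (edgeR), while 17% of all genes tested were lower and 12.9% higher. At an unadjusted p under 0.05, 15 were lower and 1 higher, and DESeq2 called 13 lower and 1 higher. The median log2 fold change was -1.87 over the 31 genes, and -1.81 over the 28 genes with more than 3 counts in a library of either condition, against -0.01 over all genes. The 13 were CCL2, CXCL1, CXCL3, CXCL6, CXCL8, CXCL12, CX3CL1, IL18, IL11, LIF, IL7, IL15 and CSF1. Without Δ22 replicate 3 and DAF replicate 3, 16 were lower (16.8% of all genes) and 1, IL33, was higher (12.3% of all genes). WT-EF and iLuc were each compared with the same iEF libraries, so their changes are not independent.

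CXCL8 measured 196, 179 and 61.6 CPM in WT-EF, below every iEF library and above every iLuc library. It was 8.37-fold lower than in iEF (log2 fold change -3.06 ± 0.42, edgeR adjusted p = 6.6e-05) and 9.04-fold higher than in iLuc (edgeR adjusted p = 0.000166). LIF measured 8.45, 5.07 and 2.80 CPM and lay in the same position, 10.2-fold below iEF (edgeR adjusted p = 8.8e-05) and 11.5-fold above iLuc (edgeR adjusted p = 0.00152). For IL11 (15.1, 13.0 and 2.64 CPM) the fold against iEF was 3.88 (edgeR adjusted p = 0.00362) and that against iLuc 19.6 (edgeR adjusted p = 0.000187). CXCL1 (4.54, 2.64 and 1.70 CPM) and CSF1 (8.70, 6.95 and 6.58 CPM) were also between the other conditions in every library. In WT-EF, replicate 3 was the lowest for CXCL8, LIF, IL11 and CXCL1.

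In WT-EF some genes overlapped iLuc and others overlapped iEF. CXCL12 measured 0.138, 0.687 and 0.0799 CPM in WT-EF, 32.8-fold below iEF (log2 fold change -5.03 ± 0.56, edgeR adjusted p = 8.83e-06), and its range overlapped that of iLuc (WT-EF against iLuc, log2 fold change 0.84 ± 0.79, edgeR adjusted p = 0.531). CXCL6 measured 0.692, 0.264 and 0.373 CPM, within the range of iLuc (log2 fold change against iLuc -1.05 ± 1.16, edgeR adjusted p = 0.607) and 22.1-fold below iEF (edgeR adjusted p = 0.00358). IL7 measured 1.33, 0.502 and 0.16 CPM, overlapping iLuc and 17.7-fold below iEF (edgeR adjusted p = 2.58e-06). In contrast, IL1A measured 32.4, 20.6 and 25.3 CPM in WT-EF against 9.46 to 29.9 CPM in iEF, which overlapped (log2 fold change 0.61 ± 0.66, edgeR adjusted p = 0.553), and was 12.2-fold above iLuc (edgeR adjusted p = 0.00367). IL1B measured 13.8, 8.96 and 5.33 CPM, overlapping iEF (log2 fold change -0.40 ± 0.63, edgeR adjusted p = 0.708) and 11.9-fold above iLuc (edgeR adjusted p = 0.00598). IL1A and IL1B were thus higher in every WT-EF library than in any iLuc library.

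In the direct comparison of WT-EF with iLuc, 10 of 31 genes were higher in WT-EF and 0 lower (edgeR), while 10.7% of all genes tested were higher and 9.03% lower. At an unadjusted p under 0.05 the counts were 13 and 0, and DESeq2 also called 13 and 0 (18.2% and 11.9% of all genes). The 10 were CXCL1, CXCL8, CX3CL1, IL1A, IL1B, IL18, IL11, LIF, IL15 and CSF1. CX3CL1 measured 0.415, 0.925 and 0.746 CPM in WT-EF, 4.16-fold below iEF (edgeR adjusted p = 0.000657) and 7.40-fold above iLuc (edgeR adjusted p = 0.00208). The count fell to 6 without replicate 1 and to 6 without replicate 2 of all conditions. Leaving out WT-EF replicate 1 alone gave 7 (7.77% of all genes higher), and leaving out WT-EF replicate 2 alone gave 8 (7.36%). The share over all genes thus fell in these fits too. The count rose to 15 without Δ22 replicate 3 and DAF replicate 3 (11% of all genes higher, 8.48% lower). The 5 added were CCL2, CCL20, CSF2, CXCL2 and IL32. CCL2 measured 8.31, 5.36 and 10.9 CPM in WT-EF, above all iLuc and below all iEF libraries, with a log2 fold change against iEF of -2.86 ± 0.81 (edgeR adjusted p = 0.0149). That call is among those lost when some libraries were left out, with an edgeR adjusted p of up to 0.225.

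Other genes in WT-EF did not pass the test against iEF with all libraries. CXCL2 measured 0.526, 0.449 and 1.01 CPM (edgeR adjusted p = 0.067 against iEF), IL6 0.277, 0.159 and 0.107 CPM (edgeR adjusted p = 0.102) and IL32 1.55, 0.555 and 2.02 CPM (edgeR adjusted p = 0.133). CXCL2 and IL6 were below every iEF library and IL32 was not, and these 3 are the genes added to the lower count without Δ22 replicate 3 and DAF replicate 3. CXCL3, among the 13 called, measured 0.554, 0.423 and 0.772 CPM, below every iEF library (edgeR adjusted p = 0.00168). CSF2 (0.858, 0.185 and 0.320 CPM) overlapped iEF, as did CXCL9 (0.0554, 0 and 0.107 CPM), CXCL11 (0.665, 0.476 and 0.746 CPM) and IL33 (3.46, 6.37 and 8.09 CPM, edgeR adjusted p = 0.0691).

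**Figure D3:**
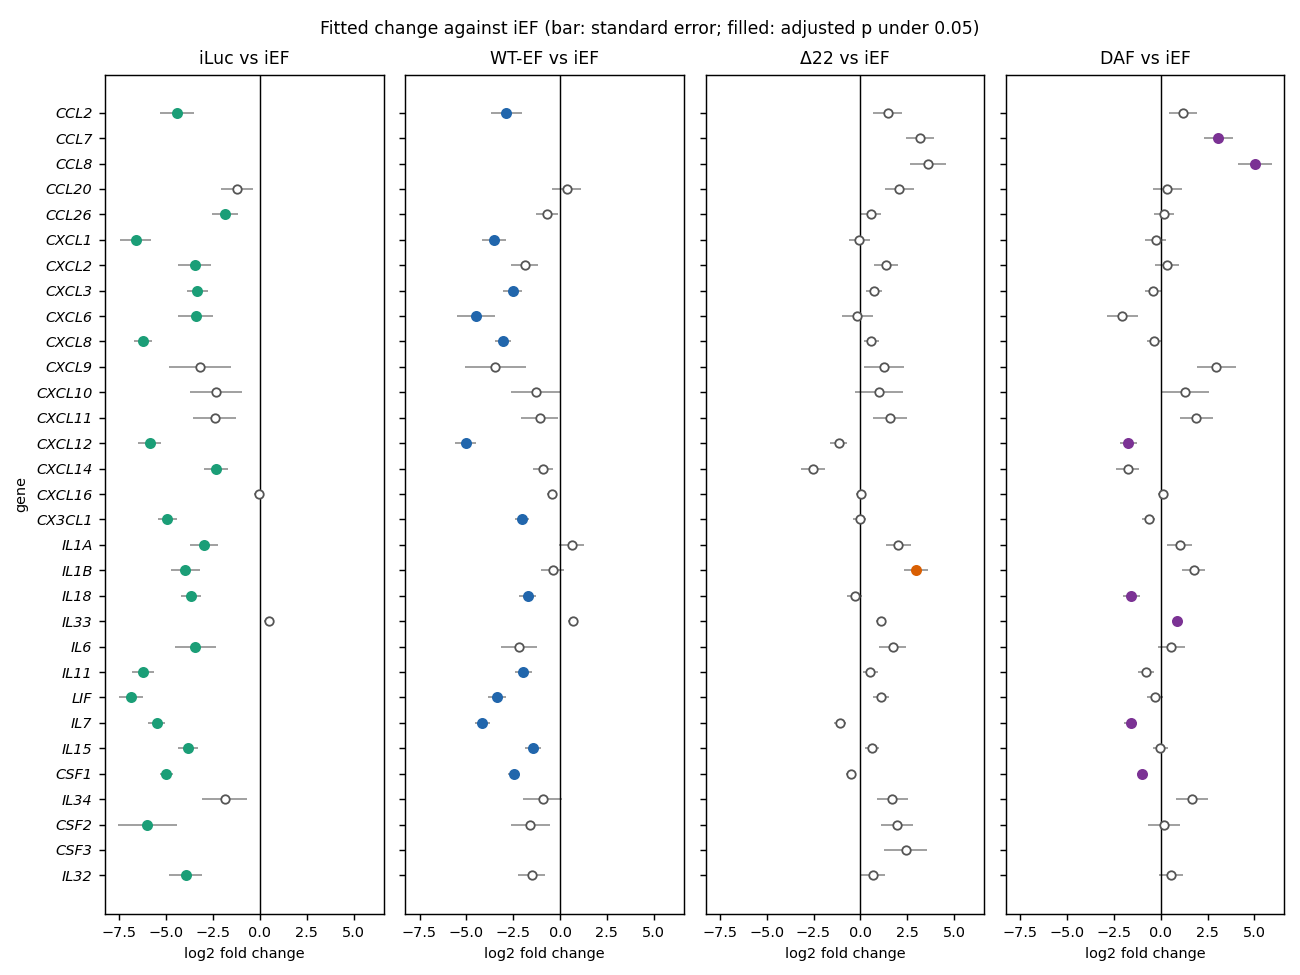
Fitted log2 fold change of each gene against iEF in 4 comparisons, with bars of 1 standard error and filled points for an adjusted p under 0.05; genes with at most 3 counts in every library of both conditions have no point. In iLuc 21 points are filled, all left of 0; in WT-EF 13, all left of 0; in Δ22 1, right of 0; and in DAF 3 right and 4 left of 0.

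Δ22, which lacks the EWS domain, gave 1 higher gene of 31 and 0 lower against iEF (edgeR), while 0.472% of all genes tested were higher and 0.830% lower. At an unadjusted p under 0.05, 9 were higher and 3 lower. DESeq2 called 2 higher and 0 lower of the 24 genes it gave an adjusted p (2.87% and 3.84% of all genes). On counts adjusted for replicate set with ComBat it called 4 higher and 2 lower of 24 (6.08% and 7.06% of all genes). The count of 2 lower is near that share. The called gene was IL1B, with 36.0, 58.3 and 408 CPM in Δ22 against 10.2 to 16.4 CPM in iEF (log2 fold change 2.96 ± 0.66, edgeR adjusted p = 0.0403). All 3 Δ22 libraries were above all iEF libraries, and replicate 3 was far above replicates 1 and 2. Without Δ22 replicate 3 and DAF replicate 3 the log2 fold change was 1.66 ± 0.33 and the count 0 (edgeR adjusted p = 0.063), with 0.0899% of all genes higher and 0.207% lower. Without the replicate block the count was also 0 (edgeR adjusted p = 0.0622).

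For most other genes, Δ22 replicate 3 lay far above replicates 1 and 2. CXCL8 measured 1302, 1292 and 3288 CPM, the last above every iEF library (log2 fold change 0.59 ± 0.39, edgeR adjusted p = 0.575). LIF measured 62.2, 69.6 and 318 CPM (edgeR adjusted p = 0.266), and IL1A 19.5, 45.7 and 278 CPM (edgeR adjusted p = 0.177). Replicates 1 and 2 of Δ22 were within the iEF range for CXCL8 and LIF, while IL1A was above it in replicate 2. CXCL1 measured 16.8, 14.3 and 115 CPM, and replicates 1 and 2 were below every iEF library. CXCL6 showed the same pattern with 2.20, 1.90 and 44 CPM. The fitted log2 fold change against iEF was -0.06 ± 0.57 for CXCL1 and -0.17 ± 0.82 for CXCL6 with all libraries, and -1.36 ± 0.32 (edgeR adjusted p = 0.0993) and -2.31 ± 0.55 (edgeR adjusted p = 0.107) without Δ22 replicate 3 and DAF replicate 3. CXCL12 measured 6.92, 4.17 and 2.43 CPM and IL7 6.36, 3.88 and 5.50 CPM, and every one of these values was below all iEF libraries without passing the test (edgeR adjusted p = 0.228 and 0.13). IL11 measured 49.6, 36.7 and 82.8 CPM, CSF1 20.9, 23.6 and 52.9 CPM, and CX3CL1 0.908, 2.42 and 6.75 CPM, each overlapping iEF.

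In DAF compared with iEF, 3 of the 31 genes were higher and 4 lower (edgeR), while 5.00% of all genes tested were higher and 6.19% lower. DESeq2 called 2 higher and 3 lower of the 29 genes it gave an adjusted p (9.02% and 9.85% of all genes). On counts adjusted for replicate set with ComBat it called 4 higher and 4 lower of 27 (11.7% and 13.0% of all genes). These DESeq2 counts are near the shares over all genes. The higher genes were CCL7, CCL8 and IL33, and the lower CXCL12, IL7, CSF1 and IL18. Without Δ22 replicate 3 and DAF replicate 3, 0 were higher (2.91% of all genes) and 5 lower (3.62%), namely CXCL6, CXCL12, CX3CL1, IL7 and CSF1. Without the replicate block 0 were higher (3.73% of all genes).

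CXCL12 measured 2.60, 2.64 and 3.79 CPM in DAF, below every iEF library (log2 fold change -1.72 ± 0.44, edgeR adjusted p = 0.0199). IL7 measured 3.87, 3.32 and 3.66 CPM, also below every iEF library (log2 fold change -1.61 ± 0.34, edgeR adjusted p = 0.00661). The call for CXCL12 was lost in 7 of 26 alternatives (edgeR adjusted p of up to 0.122) and that for IL7 in 1. For both genes DAF lay between iEF and WT-EF in every library. CSF1 measured 14.0, 18.9 and 33.3 CPM, and its highest value overlapped iEF (log2 fold change -1.02 ± 0.27, edgeR adjusted p = 0.0232). IL18 measured 0.246 to 0.396 CPM against 0.447 to 1.48 CPM in iEF (edgeR adjusted p = 0.0328, and 0.224 without both libraries).

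The genes called higher in DAF rested on few counts or on replicate 3. CCL7, a monocyte attractant, had 9, 7 and 51 counts in DAF and 3, 2 and 2 in iEF (edgeR adjusted p = 0.018, and 0.28 without both libraries). CCL8, its neighbor on chromosome 17, had 1, 4 and 35 counts in DAF and 0, 0 and 1 in iEF (edgeR adjusted p = 0.00485). Without both libraries CCL8 fell below the count minimum and was not tested. IL33 measured 3.44, 6.36 and 12 CPM in DAF and overlapped iEF (log2 fold change 0.88 ± 0.27, edgeR adjusted p = 0.0485, and 0.182 without both libraries). CCL7 and CCL8 also had more counts in Δ22 replicate 3 (61 and 14) than in any iEF library.

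The ELR CXC and IL-6 family genes did not pass the test in DAF against iEF with all libraries. CXCL8 measured 1015, 741 and 1290 CPM (log2 fold change against iEF -0.33 ± 0.39, edgeR adjusted p = 0.688), LIF 42.2, 35.2 and 72.1 CPM (edgeR adjusted p = 0.735), and IL11 28.6, 21.4 and 18.5 CPM (edgeR adjusted p = 0.286). CXCL8 and LIF overlapped iEF, and IL11 did so in 1 library. CXCL1 measured 19.9, 18.1 and 74.3 CPM, with replicates 1 and 2 below and replicate 3 above all iEF libraries. CXCL6 measured 1.27, 1.16 and 7.31 CPM, and its log2 fold change against iEF went from -2.05 ± 0.84 (edgeR adjusted p = 0.148) to -3.06 ± 0.58 (edgeR adjusted p = 0.00697) without both libraries. IL1B measured 30, 25.2 and 139 CPM, above every iEF library without passing the test (edgeR adjusted p = 0.0923). IL1A measured 17.6, 25.0 and 108 CPM and CX3CL1 0.808, 1.66 and 3.72 CPM, and both overlapped iEF.

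WT-EF and DAF differed in 19 of 31 genes, all lower in WT-EF, and 0 were higher (edgeR), while 16.1% of all genes tested were lower and 12.4% higher. The count of higher genes was also 0 at an unadjusted p under 0.05 and with DESeq2, which called 15 of 31 lower (19.3% of all genes). The 19 were CCL2, CCL7, CCL8, CXCL1, CXCL2, CXCL3, CXCL8, CXCL9, CXCL11, CXCL12, CX3CL1, IL1B, IL6, LIF, IL7, IL15, CSF1, IL34 and IL32. CXCL8 was 6.65-fold lower in WT-EF than in DAF (edgeR adjusted p = 0.000209), LIF 8.20-fold (edgeR adjusted p = 0.000255) and CXCL12 9.92-fold (edgeR adjusted p = 0.000472). In these 3 genes no WT-EF library reached the lowest DAF library, and the calls held without Δ22 replicate 3 and DAF replicate 3 (edgeR adjusted p = 0.000142, 2.74e-05 and 0.00134). The count was 11 without DAF replicate 3, 9 without WT-EF replicate 3, and 12 without Δ22 replicate 3 and DAF replicate 3 (12.3% of all genes lower, 8.16% higher). IL1A (log2 fold change -0.39 ± 0.65, edgeR adjusted p = 0.725) and IL11 (-1.16 ± 0.43, edgeR adjusted p = 0.0594) were not among them.

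DAF and Δ22 did not differ in any of the 31 genes at an adjusted p under 0.05, with 0 higher and 0 lower by edgeR and by DESeq2, while 0.948% of all genes tested were higher in DAF and 0.379% lower. At an unadjusted p under 0.05, 1 was higher and 9 lower in DAF. The largest of the differences in the IL-6 family was that of LIF, with a log2 fold change of -1.42 ± 0.43 (edgeR adjusted p = 0.168), and for CXCL8 it was -0.92 ± 0.39 (edgeR adjusted p = 0.415). Missing the threshold does not show that the constructs acted alike on these genes. Without Δ22 replicate 3 and DAF replicate 3 the counts were again 0 and 0, with 0.304% of all genes higher and 0.0657% lower. A fit of the 6 Δ22 and DAF libraries alone, with the replicate block, called 16 lower and 1 higher in DAF, while it called 4.64% of all genes lower and 4.91% higher.

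Replicate 3 of Δ22 and of DAF was set against the mean of replicates 1 and 2 for genes with at least 30 counts in the condition. In Δ22 the median ratio was 8.51 over 29 of the listed genes, and 23 of them (79.3%) were more than 2-fold higher in replicate 3. Over all 17499 genes the median was 1.01 and the share 4.69%. In DAF the median was 5.02 over 29 listed genes with 20 (69.0%) above 2-fold, against 1.01 and 3.42% over all 17326 genes. The same ratio for the listed genes had a median of 1.28 in iEF, 0.953 in WT-EF and 1.02 in iLuc. In WT-EF 7 of 23 listed genes were more than 2-fold lower in replicate 3 and 0 more than 2-fold higher. Over all 17741 genes these counts were 822 and 565. In iLuc they were 4 lower and 1 higher of 15 (288 and 143 of 17372 genes). In iEF they were 2 lower and 3 higher of 27 (339 and 130 of 17278 genes). Replicate 3 thus stood higher in most of these genes in Δ22 and DAF, and lower in a part of them in WT-EF, while the median over all genes stayed near 1.

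CCL2 measured 26.1, 97.3 and 894 CPM in Δ22 and 56.7, 75.6 and 584 CPM in DAF. CXCL10, induced by interferons, measured 1.67, 3.34 and 78.8 CPM in Δ22 and 2.74, 3.40 and 93.4 CPM in DAF. CXCL9 measured 0.176, 0.495 and 4.93 CPM in Δ22 and 0.738, 0.765 and 20.4 CPM in DAF, and CXCL11 0.674, 1.88 and 20.7 CPM and 1.48, 1.90 and 24.3 CPM. The CXCR3 ligands thus reached higher levels in DAF replicate 3 than in Δ22 replicate 3, while CCL2 did not. CSF2 measured 0.410, 3.00 and 37.2 CPM in Δ22 and 0.562, 1.29 and 5.94 CPM in DAF. IL6 measured 0.498, 0.860 and 15.2 CPM in Δ22 and 0.492, 0.633 and 4.33 CPM in DAF, and IL32 1.41, 2.56 and 34.7 CPM and 1.62, 2.88 and 26.3 CPM. CXCL2 measured 1.41, 2.27 and 28.3 CPM in Δ22 and 0.984, 1.82 and 9.99 CPM in DAF, and CXCL3 2.05, 2.19 and 19.9 CPM and 1.44, 1.56 and 5.97 CPM. Replicate 3 was the highest of its condition for each of these genes. It was not the highest for CXCL12, CXCL14, IL18 and IL7 in Δ22, nor for CCL26, CXCL14, IL18, IL11 and IL7 in DAF. CXCL12 in Δ22 replicate 3 was at 0.438 of the mean of replicates 1 and 2, and IL11 in DAF at 0.739. IL33 measured 3.25, 8.16 and 14.9 CPM in Δ22, and CCL20 1.76, 3.86 and 48.1 CPM in Δ22 and 1.09, 2.08 and 9.39 CPM in DAF.

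**Figure D4:**
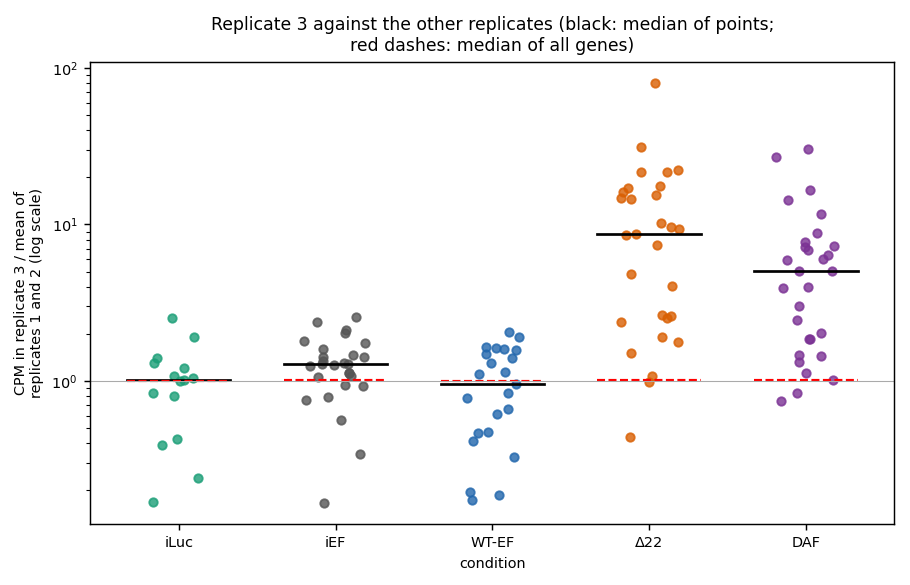
CPM in replicate 3 divided by the mean of replicates 1 and 2, on a log axis, for each listed gene with at least 30 counts in the condition (points, spread sideways at random), with black lines at their median and red dashes at the median of all such genes. The medians of the points are 8.51 in Δ22 and 5.02 in DAF, and lie between 0.953 and 1.28 in the other 3 conditions, while the medians of all genes are close to 1.

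Some other gene lists moved with replicate 3, to a smaller extent. The ratio had a median of 2.47 in Δ22 and 2.26 in DAF over 19 NF-kB subunits, inhibitors and targets. Of these, 11 of 19 were above 2-fold in each (4.69% of all genes in Δ22, 3.42% in DAF). Over interferon regulators the median was 2.21 in Δ22 (9 of 16 above 2-fold) and 1.41 in DAF (4 of 15). For IL-6 family signaling, cytokine receptors and decoys, processing and shedding, and AP-1 and C/EBP genes the medians were nearer 1. They lay between 1.12 and 1.49 in Δ22 and between 1.17 and 1.31 in DAF. Chromosome 4 neighbors of the ELR CXC genes had medians of 1.14 and 0.860, with 0 of 5 above 2-fold in Δ22. Among leukocyte markers, CD14 measured 0.645, 0.730 and 2.54 CPM in Δ22 and 1.48, 1.93 and 3.69 CPM in DAF, while CSF1R measured 0.733, 0.808 and 0.679 CPM and 0.703, 0.633 and 0.570 CPM. ITGAM measured 0.147, 1.46 and 1.72 CPM in Δ22 and 0.492, 2.66 and 2.55 CPM in DAF, and the pan-leukocyte gene PTPRC 0.205, 0.808 and 0.715 CPM in Δ22 and 0.316, 0.580 and 1.01 CPM in DAF. LYZ and CD68 were at most 0.209 and 0.105 CPM in these 6 libraries. Their part in the result was not tested.

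Of 22 chemokine receptor genes, 12 had at most 3 counts in every library and 9 were tested, of which 1 was higher and 1 lower in iLuc than in iEF (19.5% and 22.1% of all genes). The lower was CXCR4, with a mean of 2.10 ± 0.227 CPM in iLuc and 5.55 ± 2.13 CPM in iEF (SD, n = 3, edgeR adjusted p = 0.0423). CXCR4 was higher in DAF than in iEF, at 26.1 ± 15.3 CPM (log2 fold change 2.22 ± 0.49, edgeR adjusted p = 0.00901), and measured 23.8 ± 10.4 CPM in Δ22 (edgeR adjusted p = 0.0533). The log2 fold change of CXCR4 in DAF was 1.40 ± 0.30 without Δ22 replicate 3 and DAF replicate 3 (edgeR adjusted p = 0.0137). Its ligand CXCL12 had moved the other way in DAF. Of 19 tested cytokine receptors and decoys, 4 were higher and 9 lower in iLuc than in iEF, and the count of higher genes is near the share over all genes. OSMR, the oncostatin M receptor, averaged 27.7 ± 5.01 CPM in iLuc and 146 ± 22.5 CPM in iEF, and 55.0 ± 12.2 CPM in WT-EF (edgeR adjusted p = 9.05e-09 and 2.38e-06 against iEF). IL6R was lower in iLuc in the same way (2.43 ± 0.913 against 28.5 ± 4.44 CPM, edgeR adjusted p = 1.79e-08). IL1RAP, the shared accessory protein of IL-1 receptors, went the other way, with 482 ± 36.4 CPM in iLuc, 82.7 ± 6.50 in iEF and 259 ± 69.5 in WT-EF (edgeR adjusted p = 2.31e-08 and 3.64e-06 against iEF).

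Lists of related genes, which hold targets, feedback genes and processing enzymes as well as regulators, were counted in the same fit. In that fit 22.1% of all genes were lower and 19.5% higher in iLuc, and 17% lower and 12.9% higher in WT-EF. Of 19 tested NF-kB subunits, inhibitors and targets, 15 were lower and 1 higher in iLuc, with a median log2 fold change of -1.15. In WT-EF 10 of them were lower and 1 higher. TNFAIP2, a target of NF-kB, averaged 2.26 ± 0.431 CPM in iLuc, 67.4 ± 12.7 in iEF and 6.72 ± 2.87 in WT-EF (edgeR adjusted p = 2.49e-06 and 8.53e-05 against iEF), and the kinase gene IKBKB and the subunit gene RELA changed less in iLuc (log2 fold change -1.05 ± 0.08 and -0.96 ± 0.12). Of 11 AP-1 and C/EBP genes, 6 were lower and 3 higher in iLuc, the latter a share near that over all genes. FOSL1 averaged 3.56 ± 0.631 CPM in iLuc and 69.7 ± 17.3 in iEF, and FOSL2 8.25 ± 1.88 and 189 ± 9.11 CPM (edgeR adjusted p = 7.44e-09 and 1.64e-08), whereas CEBPB was higher in iLuc (38.8 ± 6.73 against 17.3 ± 0.535 CPM, edgeR adjusted p = 9.61e-07). Of 16 interferon regulators, 14 were lower in iLuc, among them IRF1 with 7.95 ± 3.55 CPM against 45.6 ± 18.2 CPM (edgeR adjusted p = 7.6e-05). Of 10 genes of IL-6 family signaling, 6 were lower and 2 higher, the latter again near the share over all genes, and the feedback inhibitor SOCS3 averaged 8.38 ± 0.568 CPM in iLuc, 127 ± 17 in iEF and 30.7 ± 13.7 in WT-EF (edgeR adjusted p = 7.55e-09 and 2.97e-06 against iEF). Of 10 genes for processing and shedding, 7 were lower in iLuc, among them ADAM10, a protease that sheds CX3CL1 and CXCL16 (164 ± 11.4 against 517 ± 34.3 CPM, edgeR adjusted p = 4.72e-08). IRF2, IFNAR1, PIM1, SOCS1, NLRP1 and GSDME were lower in iLuc as well, with log2 fold changes between -4.07 for SOCS1 and -0.74 for IFNAR1.

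Against iEF, 0 of the 105 tested genes of these lists were called in Δ22 by edgeR (0.472% of all genes higher, 0.830% lower). At an unadjusted p under 0.05, 12 were higher and 4 lower. DESeq2 called 3 higher and 0 lower, against 2.87% and 3.84% of all genes, and the 3 higher are near that share. In DAF 8 were higher and 6 lower, near the shares over all genes (5.00% and 6.19%). The counts were 0 and 0 in Δ22, and 7 higher and 8 lower in DAF, without Δ22 replicate 3 and DAF replicate 3 (2.91% and 3.62% of all genes in DAF). FOSL1, FOSL2 and SOCS3 measured 51.2 ± 6.73, 187 ± 24.0 and 90.8 ± 19.0 CPM in DAF, and missed the threshold against iEF (edgeR adjusted p = 0.235, 0.981 and 0.131). IKBKB was lower in DAF by a small amount (log2 fold change -0.35 ± 0.08, edgeR adjusted p = 0.00757), as was ADAM10 (-0.48 ± 0.11, edgeR adjusted p = 0.0135), and both stayed lower without the 2 libraries (edgeR adjusted p = 0.0362 and 0.0185).

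Genes beside or between the ELR CXC genes were partly lower as well. Of 9 tested chromosome 4 neighbors, 6 were lower and 1 higher in iLuc than in iEF (22.1% and 19.5% of all genes). PF4V1, counted here, lies within the cluster between CXCL6 and CXCL1, with 0 CPM in iLuc and a mean of 1.07 CPM in iEF. Among the 9, AFP, AREG and RASSF6 averaged only a few counts per library (3.20 for AFP and 1.40 for RASSF6) and are limited by depth. EREG and EPGN, which encode ligands of the EGF receptor, averaged 3.23 ± 0.444 and 0.111 ± 0.0967 CPM in iLuc and 154 ± 68.7 and 5.69 ± 2.98 CPM in iEF (edgeR adjusted p = 2.62e-06 and 7.64e-07). MTHFD2L, a mitochondrial folate enzyme gene that lies between CXCL2 and EPGN, averaged 18.4 ± 1.89 CPM in iLuc and 19.7 ± 0.888 CPM in iEF, with a log2 fold change of -0.10 ± 0.14 (edgeR adjusted p = 0.606). Of the 6 listed chromosome 17 neighbors of CCL2, CCL7 and CCL8, 2 were tested, and ASIC2, an ion channel gene, was higher in iLuc (9.24 ± 0.366 against 0.685 ± 0.238 CPM, edgeR adjusted p = 5.05e-07).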

How the data were processed

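RNA was sequenced from 15 libraries of A673 cells, 3 in each of 5 conditions. The authors made ScriptSeq libraries, sequenced paired ends, aligned reads to hg19 with STAR (version 2.5.1b in the submitters' processing notes) and deposited raw counts per gene from HTSeq; 3 columns of samples not described in the labels were not used. The authors' ComBat-adjusted counts and their table of fold changes and p-values were deposited too and were not used. The 28793 genes with a mean of 1 count or more over the libraries entered 1 model of all 15 libraries in edgeR 4.0.16 (R 4.3.3, TMM, quasi-likelihood test, Benjamini-Hochberg over all genes tested, threshold 0.05). The model held condition and replicate number, because the study's methods adjusted each set of replicates for batch. Deviations from the condition means had a median correlation of 0.147 for 30 same-numbered pairs and -0.0797 for 60 other pairs over 17653 genes, and some same-numbered pairs were negative (lowest -0.117). Listed genes with a mean of at least 50 counts and a call in at least 1 of 7 comparisons are given in every library, the others by range or count; from each pathway list, up to 3 genes with the lowest p in iLuc against iEF and a mean of at least 50 counts were named, and markers of other cell types were named after their values were seen. Alternatives were DESeq2 1.42.0, run on raw counts or after ComBat from sva 3.50.0, DESeq2 size factors, other count minimums, no block, 6 libraries per comparison, leaving out libraries, and, chosen after seeing the data, leaving out Δ22 replicate 3 and DAF replicate 3 together. The steps were tested on simulated data. The genes and lists were chosen with earlier results of these data known. Gene positions are GRCh37, and promoter sequences RefSeq GRCh38.p14.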

Additional observations from a re-analysis of the deposited data

How the results depend on the processing

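Of 56 pairs of a called gene and a comparison, 37 kept their call under all 26 alternatives and 0 reversed. In 1454 recomputed values, 1351 stayed on their side of the threshold and 103 lost it, 91 of these when libraries were left out. IL1B in Δ22 lost its call in 14 of 26 alternatives, with an edgeR adjusted p of up to 0.336, and CXCL12 and CSF1 in DAF lost theirs in 7 each (up to 0.122 and 0.314). With no low-count filter, the counts against iEF became 1 higher in WT-EF, 13 higher and 3 lower in Δ22, and 9 higher and 7 lower in DAF, while WT-EF against iLuc had 16 higher, and DAF against Δ22 had 1 higher and 12 lower; of all genes the same setting called 7.88% higher in WT-EF, 1.76% and 1.64% in Δ22, 4.23% and 4.59% in DAF, 7.70% in WT-EF against iLuc, and 1.49% and 1.24% in DAF against Δ22. With the 6 libraries of a comparison alone they were 1 higher in WT-EF, 1 lower in Δ22 and 7 lower in DAF, and 1 higher and 16 lower in DAF against Δ22, where all genes gave 9.83%, 1.02%, 6.99%, 4.91% and 4.64%. Without the replicate block, 0 were higher in Δ22 and 0 in DAF (0.174% and 3.73% of all genes). IL6 was lost in iLuc (edgeR adjusted p = 0.083), as were IL33 (0.318) and CSF1 (0.096) in DAF. In that setting 14 in place of 19 were lower in WT-EF than in DAF (14.4% of all genes). A minimum of 10 counts gave 1 higher in WT-EF (23.1% of all genes). DESeq2 gave 1 higher in WT-EF and 2 in Δ22 (15.1% and 2.87% of all genes). On ComBat-adjusted counts it gave 1 higher in WT-EF (18.1% of all genes), and 4 higher and 2 lower in Δ22 (6.08% and 7.06%). Leaving out libraries gave 0 to 1 higher in iLuc and in WT-EF against iEF, 0 to 3 higher and 0 to 4 lower in Δ22, 0 to 4 higher and 0 to 7 lower in DAF, 6 to 15 higher in WT-EF against iLuc, 9 to 23 lower in WT-EF against DAF, and 0 to 3 lower in DAF against Δ22. The shares over all genes moved with the libraries as well. For WT-EF against DAF, 12.9% were lower without WT-EF replicate 3 (9 listed genes) and 15.4% without WT-EF replicate 1 (23 listed genes). Without WT-EF replicate 3, 1.42% were higher in Δ22 and 6.91% in DAF against iEF (3 and 4 listed genes), and 1.00% lower in DAF against Δ22 (3 listed genes). The cause of these shifts was not tested. Genes at a few counts per library, such as CCL7, CCL8, CSF3 and CXCL9, are limited by depth.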
